A study of Homo sapiens with 12 samples.

Results

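Polycomb repressive complex 2 (PRC2) is the histone methyltransferase that marks repressed genes. RNA of 10 genes for its core and accessory subunits was followed here: EZH2, EZH1, EED, SUZ12, RBBP4, RBBP7, JARID2, MTF2, PHF19 and AEBP2. They were taken by gene symbol from a deposited table of 26475 genes. All 10 passed the filter on low counts, among 15443 genes tested. The cells were A375, an established human melanoma line that carries mutant BRAF. They were treated for 24 h in 4 groups of 3 libraries. The first group received 1 µM XL413, an inhibitor of the replication kinase CDC7. The second received 1 µM GSK343, which blocks the catalytic activity of EZH2. The third received both compounds at 1 µM each (GSK343+XL413), and the fourth received DMSO. Each group had 3 biological replicates per the labels, all of the same line, dose and time. Poly-A RNA was sequenced. The comparisons ask how the RNA of the complex responded when its enzyme was inhibited, alone or together with CDC7.

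In PRC2, EZH2 or its paralog EZH1 transfers methyl groups to lysine 27 of histone H3, and needs SUZ12 and EED to be active. EED also binds the finished trimethyl mark and stimulates the enzyme. RBBP4 and RBBP7 are histone-binding WD40 proteins that several other chromatin complexes also use. Accessory subunits divide the complex into PRC2.1, with a Polycomb-like protein (PHF1, MTF2 or PHF19), and PRC2.2, with JARID2 and AEBP2. In melanoma, EZH2 is often highly expressed, and it is the better expressed catalytic subunit in dividing cells in general. The RNA of EZH2 is known to depend on E2F factors in other cell types.

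Library totals ran from 31553205 to 39079931 estimated reads. The melanocyte-lineage regulators SOX10 (296.4 to 370.1 estimated counts per 1000000 mapped to genes, CPM) and MITF (36.6 to 50.5 CPM) were present in every library. Pigment genes were at or near 0: TYR was at 0 in all 12 libraries and PMEL reached at most 1.12 CPM. Of 9 melanoma and neural crest markers, 6 reached 1 CPM, and AXL had the highest median (range 337.5 to 486.4 CPM). Their summed level was 788.0 to 843.4 CPM with XL413, 807.5 to 858.0 CPM with GSK343, 736.3 to 759.0 CPM with GSK343+XL413 and 886.7 to 933.1 CPM with DMSO, and the part of this shift in the results below was not tested. Markers of other cell types were mixed. Of 5 epithelial markers 2 reached 1 CPM, KRT14 (18.2 to 24.3 CPM) and CLDN4 (7.8 to 12.5 CPM), while EPCAM reached at most 0.224 CPM and CDH1 at most 0.172 CPM. The summed epithelial level was 32.3 to 34.7 CPM with XL413, 26.8 to 31.3 CPM with GSK343, 30.3 to 37.7 CPM with GSK343+XL413 and 30.6 to 35.1 CPM with DMSO, and its part in the results was not tested. All 5 fibroblast markers reached 1 CPM, their summed level running from 77.9 to 141.9 CPM over all groups, and 0 of 3 endothelial markers did. Of 5 leukocyte markers 2 reached 1 CPM, CD68 (42.1 to 48.9 CPM) and LYZ (5.15 to 7.44 CPM), while PTPRC reached at most 0.0875 CPM. The summed leukocyte level ran from 47.3 to 56.4 CPM over all groups. The library GSK343+XL413 replicate 2 stood apart: the SD of its gene-wise deviations from its group was 0.293 on the log2 scale, against 0.171 to 0.205 in the other libraries. Those deviations followed transcript length, with a Spearman correlation across 13058 genes of -0.603, against -0.411 to 0.524 elsewhere. Where leaving it out changed a call or moved a named difference from DMSO by over 1.5 times, the value without it is given.

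The differences among the PRC2 subunits were small. EZH2 RNA fell by 9.71% with GSK343+XL413 relative to DMSO, and it was the only member called there, where 13.9% of tested genes were. Averaged over the presence and absence of XL413, MTF2 and PHF19 fell with GSK343, by 8.37% and 6.69%. In that average 6.55% of tested genes were called. No member was called with XL413 alone or GSK343 alone, where 0.427% and 1.17% of tested genes were. No member rose past the threshold in any of the 8 comparisons. A gene was called where edgeR's quasi-likelihood test gave a Benjamini-Hochberg adjusted p below 0.05 over all tested genes. In these bulk samples, fewer cells of a type and less RNA per cell cannot be told apart. Protein levels and histone methylation were not analysed here.

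**Figure D1:**
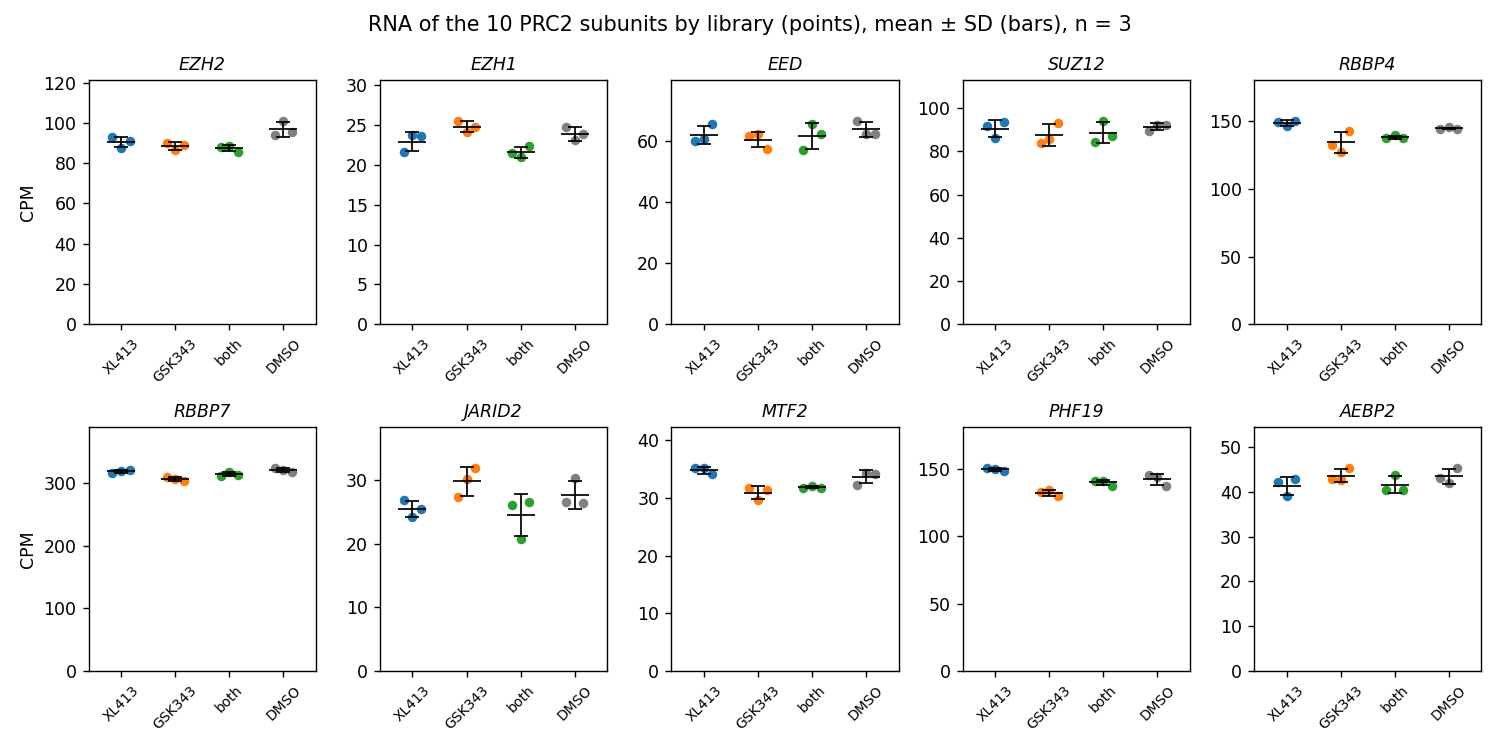
Level of each of the 10 PRC2 genes in CPM (y axis from 0, its scale set per gene) in the 12 libraries, by treatment; points are libraries and bars are the mean ± SD of 3. EZH2 sits at 87.4 CPM on average with both compounds against 96.8 CPM with DMSO, while EED and SUZ12 overlap between those groups.

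To compare the genes with each other, CPM was divided by the length of the longest basic transcript in GENCODE 29. RBBP7 had by far the highest length-scaled level, 135.0 CPM per kilobase (range 130.2 to 138.8 over 12 libraries). EZH2 (34.4) and PHF19 (33.3 CPM per kilobase) came next, and their ranges overlapped. EED (27.8) stood below both, and SUZ12 (19.9) and RBBP4 (17.8 CPM per kilobase) overlapped each other below EED. AEBP2 (8.32) and MTF2 (7.95) overlapped, as did EZH1 (5.05) and JARID2 (4.67 CPM per kilobase), the lowest pair. The order was the same in the GSK343, GSK343+XL413 and DMSO groups, and with XL413 the neighbours EZH2 and PHF19, and AEBP2 and MTF2, exchanged places. Some places depended on the length used, among them those of RBBP4 and EZH2. The longest transcript of RBBP4 has 7943 nt and its median basic transcript 1731 nt. By the median or by coding length (1275 nt) RBBP4 was second only to RBBP7. EZH2 was 4th by median length and 6th by coding length, where its 40.3 CPM per kilobase lay below EED (44.3) and SUZ12 (40.4). By median length MTF2 (8.32) stood below EZH1 (9.33 CPM per kilobase).

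**Figure D2:**
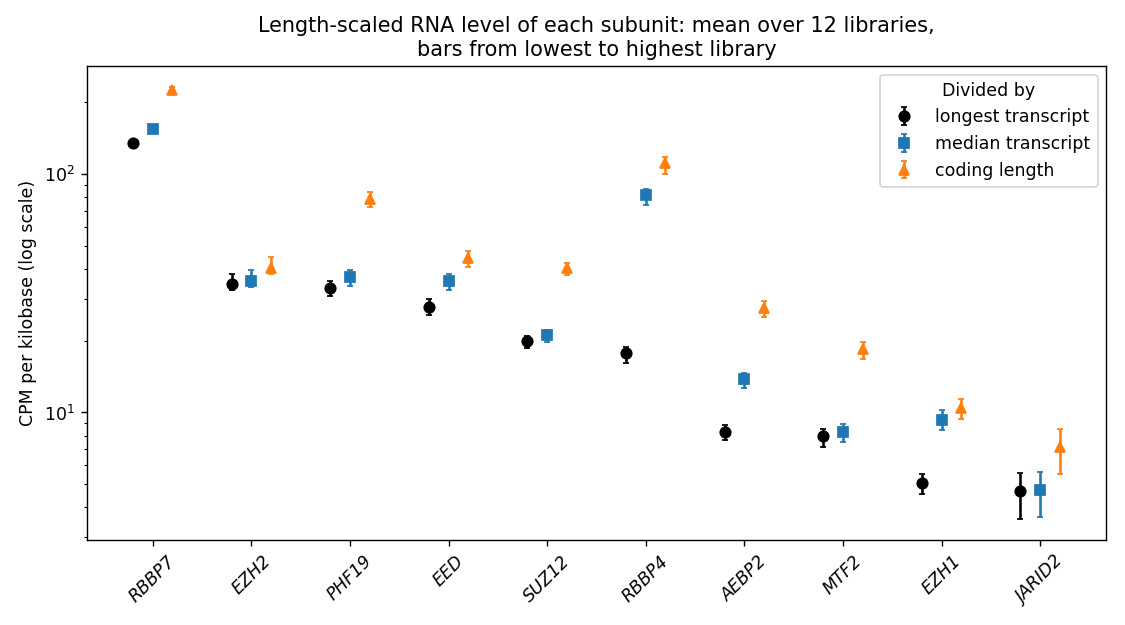
CPM per kilobase (log axis) of each subunit gene, mean over 12 libraries with bars from the lowest to the highest library, for 3 choices of length. RBBP7 is highest and JARID2 lowest under each choice, and RBBP4 moves between 17.8 and 111.0 CPM per kilobase.

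EZH2 (ENSG00000106462, GRCh38 chromosome 7, 148807383 to 148884321, minus strand) encodes the enzyme that GSK343 blocks. It had 93.0, 87.7 and 90.8 CPM with XL413, 90.2, 86.3 and 88.9 CPM with GSK343, and 88.1, 88.4 and 85.7 CPM with GSK343+XL413, against 94.2, 100.9 and 95.4 CPM with DMSO. Every treated library lay below every DMSO library. With GSK343+XL413 the log2 fold change was -0.15 ± 0.041 (SE, 95% confidence interval -0.24 to -0.06), called by edgeR's test at an adjusted p of 0.0329. With GSK343 alone it was -0.13 ± 0.041 (edgeR adjusted p = 0.162), and with XL413 alone -0.10 ± 0.041 (edgeR adjusted p = 0.323). These 3 differences share the same DMSO libraries. GSK343+XL413 set against GSK343 gave -0.02 (interval -0.11 to 0.07), and against XL413 -0.05 (interval -0.14 to 0.04). The call with both compounds was lost without DMSO replicate 1 (edgeR adjusted p = 0.0532), DMSO replicate 2 (0.127), DMSO replicate 3 (0.0647) or GSK343+XL413 replicate 3 (0.0604). It held without GSK343+XL413 replicate 2, the library that stood apart (edgeR adjusted p = 0.0217).

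EZH1 (ENSG00000108799, chromosome 17, 42700275 to 42745049, minus strand), the paralog with weaker catalytic activity, had 21.6, 23.7 and 23.6 CPM with XL413, 25.5, 24.1 and 24.8 CPM with GSK343, and 21.5, 21.0 and 22.4 CPM with GSK343+XL413, against 24.8, 23.1 and 23.9 CPM with DMSO. The GSK343+XL413 libraries lay below all GSK343 and all DMSO libraries. Neither difference was called: -0.20 ± 0.054 against GSK343 (edgeR adjusted p = 0.089) and -0.15 ± 0.054 against DMSO (edgeR adjusted p = 0.0877, both log2). The difference from DMSO had an edgeR adjusted p of 0.181 without GSK343+XL413 replicate 2. The averaged XL413 effect on EZH1 was -0.13 ± 0.038 log2 (SE) and missed the threshold (edgeR adjusted p = 0.052, and 0.0606 without that library). By length-scaled level EZH1 made up 12.7% ± 0.863 of EZH1 plus EZH2 with XL413, 13.8% ± 0.0994 with GSK343, 12.4% ± 0.53 with GSK343+XL413 and 12.4% ± 0.763 with DMSO (SD, n = 3 each). The GSK343 libraries, at 13.7% to 13.9%, lay above the DMSO libraries, at 11.6% to 13.1%. Over coding length the share was larger, 22.0% with GSK343 and 19.9% with DMSO.

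Among the core partners, EED (ENSG00000074266, chromosome 11, 86244544 to 86278813, plus strand), the reader of the trimethyl mark, averaged 62.0 ± 2.97 CPM with XL413, 60.4 ± 2.5 CPM with GSK343, 61.5 ± 4.31 CPM with GSK343+XL413 and 63.8 ± 2.4 CPM with DMSO (SD, n = 3 each). SUZ12 (ENSG00000178691, chromosome 17, 31937018 to 32001045, plus strand), the scaffold, averaged 90.5 ± 3.93, 87.7 ± 5.03 and 88.7 ± 4.89 CPM with XL413, GSK343 and GSK343+XL413, and 91.5 ± 1.52 CPM with DMSO (SD, n = 3 each). Neither gene was called. EED lay below all DMSO libraries (62.4 to 66.5 CPM) in the 3 GSK343 libraries (57.5 to 62.2 CPM), while SUZ12 overlapped between all groups. For SUZ12 the log2 difference with GSK343 was -0.06 (interval -0.18 to 0.06), and with GSK343+XL413 it was -0.04 (interval -0.16 to 0.07). With both compounds SUZ12 gave -0.08 and EED -0.09 when GSK343+XL413 replicate 2 was left out, against -0.04 and -0.05 with all libraries.

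The histone-binding subunits RBBP4 and RBBP7 both lay below DMSO in all 3 GSK343 libraries. RBBP4 (ENSG00000162521, chromosome 1, 32651142 to 32686211, plus strand) had 149.5, 146.4 and 150.3 CPM with XL413, 132.6, 127.6 and 143.1 CPM with GSK343, and 137.4, 139.7 and 137.6 CPM with GSK343+XL413, against 144.7, 145.6 and 144.3 CPM with DMSO. All 6 libraries with GSK343 (127.6 to 143.1 CPM) lay below all 6 without it (144.3 to 150.3 CPM), as was the case for 2.17% of tested genes. The averaged GSK343 effect of -0.11 log2 missed the threshold (edgeR adjusted p = 0.0506), and was called without GSK343 replicate 3 (0.0127) or without GSK343+XL413 replicate 2 (0.0164). RBBP7 (ENSG00000102054, chromosome X, 16839283 to 16870414, minus strand) had 309.3, 306.4 and 303.7 CPM with GSK343, against 323.9, 320.9 and 317.4 CPM with DMSO, without overlap. RBBP7 was 4.44% lower with GSK343 (interval -8.66% to -0.0329%), which was not called (edgeR adjusted p = 0.346). With XL413 and with GSK343+XL413 RBBP7 averaged 318.5 ± 2.23 and 314.3 ± 3.36 CPM, against 320.7 ± 3.27 CPM with DMSO (SD, n = 3 each).

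Reads of RBBP4 and SUZ12 were partly divided among similar genes by RSEM: their estimated counts were not whole numbers in 11 and 8 of the 12 libraries, and those of the other 8 members were whole in all. SUZ12P1, a pseudogene of SUZ12, had 0.903 to 1.74 CPM. RBBP4 and RBBP7 overlap genes on the opposite strand, SYNC (6.36 to 10.1 CPM) and TXLNG (72.0 to 91.7 CPM). The protocol keeps strand, but the strand setting of the counting was not given in the sources used here, so shared reads cannot be told apart.

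The 2 members called lower in the averaged GSK343 effect, MTF2 and PHF19, are Polycomb-like subunits of PRC2.1, and neither was called in either XL413 state on its own. MTF2 (ENSG00000143033, chromosome 1, 93079235 to 93139081, plus strand), which binds unmethylated CpG-rich DNA, had 35.2, 35.2 and 34.1 CPM with XL413, 31.7, 29.6 and 31.3 CPM with GSK343, and 31.8, 32.1 and 31.8 CPM with GSK343+XL413, against 32.3, 34.4 and 34.2 CPM with DMSO. Its 6 libraries with GSK343 (29.6 to 32.1 CPM) lay below the 6 without (32.3 to 35.2 CPM), and RBBP4 was the only other member of which this was true. The averaged GSK343 effect on MTF2 was -0.13 ± 0.032 log2 (SE, interval -0.19 to -0.06), called by edgeR's test at an adjusted p of 0.033. That average is of -0.12 ± 0.045 for GSK343 against DMSO (edgeR adjusted p = 0.217) and -0.13 ± 0.045 for GSK343+XL413 against XL413 (edgeR adjusted p = 0.214). The call held in 4 of 12 fits that left out a library. The other 8 fits, without DMSO replicate 2 or 3, any XL413 library, GSK343 replicate 1 or 2, or GSK343+XL413 replicate 1, gave edgeR adjusted p from 0.0518 to 0.0811.

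PHF19 (ENSG00000119403, chromosome 9, 120855652 to 120894896, minus strand) had 150.8, 150.0 and 148.2 CPM with XL413, 132.8, 134.2 and 130.0 CPM with GSK343, and 141.1, 141.3 and 137.6 CPM with GSK343+XL413, against 145.4, 143.9 and 137.2 CPM with DMSO. The GSK343 libraries lay below all others, the XL413 libraries above all others, and the libraries with both compounds within the DMSO range. The averaged GSK343 effect was -0.10 ± 0.025 log2 (SE, interval -0.15 to -0.04), called by edgeR's test at an adjusted p of 0.0354. The averaged XL413 effect was 0.08 ± 0.025 in the other direction (interval 0.02 to 0.13) and missed the threshold (edgeR adjusted p = 0.0713). Without GSK343+XL413 replicate 2 this rise was called (edgeR adjusted p = 0.0339), where 7.05% of tested genes were called higher. The averaged GSK343 call held in 4 of 12 fits that left out a library. It was lost without DMSO replicate 1 or 2, any XL413 library, GSK343 replicate 1 or 3, or GSK343+XL413 replicate 3 (edgeR adjusted p 0.0538 to 0.0881). It was also lost with correction for GC content and transcript length (-0.07, edgeR adjusted p = 0.0523).

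Of the PRC2.2 subunits, JARID2 (ENSG00000008083, chromosome 6, 15246296 to 15522040, plus strand), which binds the nucleosome and carries a Jumonji domain without demethylase activity, varied most. It had 26.8, 24.2 and 25.5 CPM with XL413, 27.4, 30.2 and 31.9 CPM with GSK343, and 26.1, 20.7 and 26.6 CPM with GSK343+XL413, against 26.6, 30.3 and 26.4 CPM with DMSO. The value of 20.7 CPM came from GSK343+XL413 replicate 2. Against GSK343, both compounds gave -0.29 ± 0.093 log2 (edgeR adjusted p = 0.128), or -0.18 without that library, and the groups did not overlap. Against DMSO, both compounds gave -0.18 (edgeR adjusted p = 0.202), or -0.07 without that library. The averaged XL413 effect was -0.20 ± 0.066 (edgeR adjusted p = 0.0665), and -0.15 without that library (edgeR adjusted p = 0.0573). With GC and length correction this effect was called lower, at -0.16 (edgeR adjusted p = 0.0276), where 8.17% of tested genes were. AEBP2 (ENSG00000139154, chromosome 12, 19404045 to 19720801, plus strand), a zinc finger cofactor of the enzyme, averaged 41.3 ± 2.02 CPM with XL413, 43.6 ± 1.49 CPM with GSK343, 41.5 ± 1.9 CPM with GSK343+XL413 and 43.4 ± 1.64 CPM with DMSO (SD, n = 3 each), and the groups overlapped. None of these differences was called by edgeR with all libraries and no correction.

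The ratio of PRC2.1 to PRC2.2 RNA, taken as the length-scaled sum of PHF19, MTF2 and PHF1 over that of JARID2 and AEBP2, is given as a description. It was 4.24, 4.52 and 4.19 with XL413, 3.70, 3.58 and 3.29 with GSK343, and 4.04, 4.17 and 3.93 with GSK343+XL413, against 3.99, 3.87 and 3.75 with DMSO. The GSK343 libraries lay below all DMSO libraries and the XL413 libraries above them, while the libraries with both compounds overlapped them. By median transcript length the ratio was lower, 2.70 ± 0.149 with GSK343 and 2.94 ± 0.106 with DMSO (SD, n = 3 each), and those groups lay barely apart at 2.53 to 2.81 against 2.82 to 3.02. By coding length they met at 3.01, with 2.72 to 3.01 for GSK343 and 3.01 to 3.23 for DMSO.

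**Figure D3:**
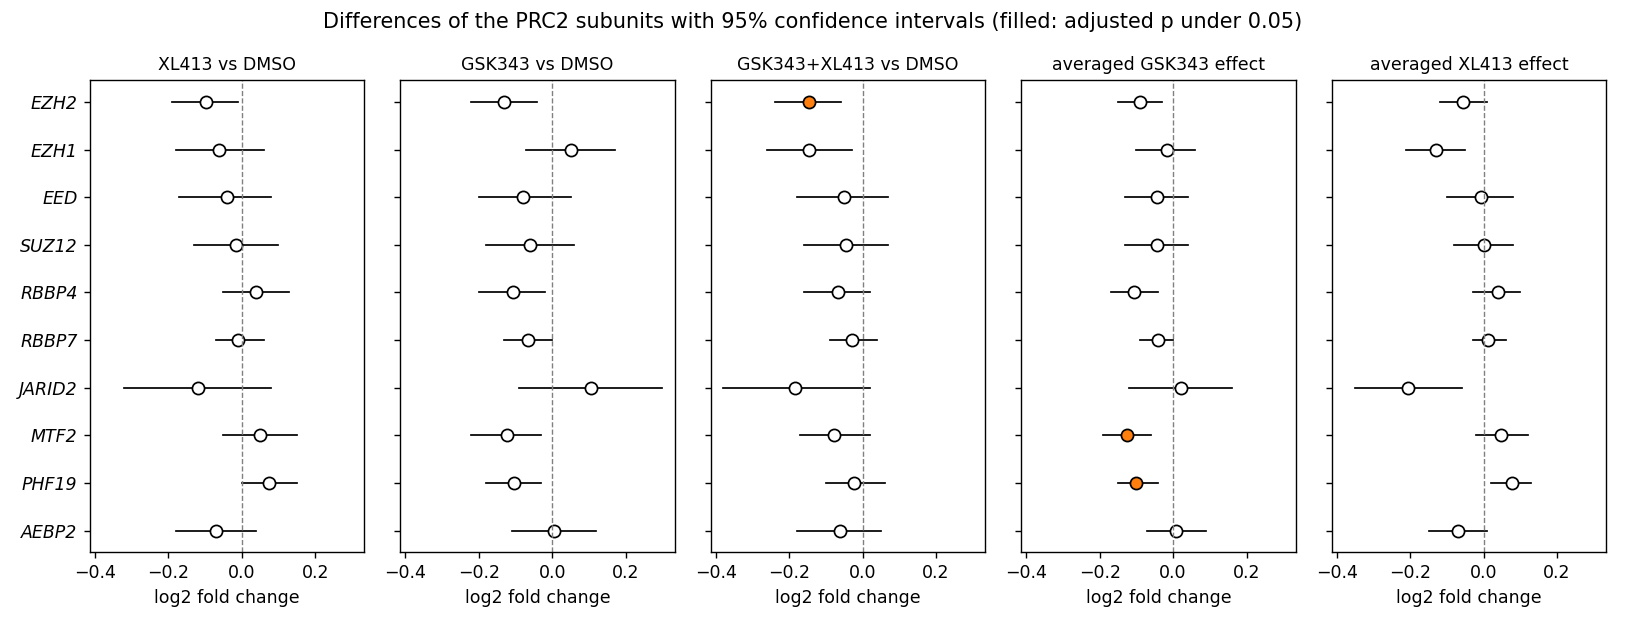
Log2 fold change (x axis) of each PRC2 gene in 5 comparisons, with 95% confidence intervals from edgeR; filled points have an adjusted p under 0.05. The filled points are EZH2 with GSK343+XL413 and MTF2 and PHF19 in the averaged GSK343 effect.

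With GSK343 alone, 0 of 10 members were called by edgeR, where 1.17% of tested genes were. At an unadjusted p below 0.05 there were 5 members, EZH2, RBBP4, RBBP7, MTF2 and PHF19, all lower, where 14.3% of tested genes passed. All 3 GSK343 libraries lay below all 3 DMSO libraries for 6 members, those 5 and EED, against 14.0% of tested genes. DESeq2 and limma-voom called 0 members in this comparison. The median of the 10 log2 differences was -0.072, against 0.0011 over all tested genes. Over the members, the 95% intervals ran from -14.2% (MTF2) to 23.5% (JARID2).

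With GSK343+XL413, 1 of 10 members was called, against 13.9% of tested genes, and 7.25% of tested genes were called lower. All 10 differences were negative, and the median was -0.065 log2, against 0.006 over all tested genes. The groups did not overlap for EZH2, EZH1, RBBP4 and MTF2, all lower, against 17.4% of tested genes. The intervals ran from -23.4% (JARID2) to 5.19% (EED), and both genes moved by over 1.5 times without GSK343+XL413 replicate 2, as given above. AEBP2 likewise moved to -0.10 log2, against -0.06 with all libraries. With XL413 alone, 0 members were called by edgeR, DESeq2 or limma-voom, where edgeR called 0.427% of tested genes, and EZH2 alone had an unadjusted p below 0.05, as 13.7% of tested genes did. In that comparison EZH2 lay below all DMSO libraries (16.2% of tested genes did), and RBBP4 and PHF19 lay above them (11.9%). The shares called for single compounds depended on GSK343+XL413 replicate 2, which enters the common estimate of spread. Without it edgeR called 4.85% of tested genes with XL413 alone and 6.15% with GSK343 alone, and no member in either.

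Averaged over the other compound, GSK343 gave 2 members called lower, against 6.55% of tested genes called and 3.37% called lower, and XL413 gave 0 members, against 9.12% of tested genes. Directly between treatments, 0 members were called for GSK343+XL413 against XL413 (0.784% of tested genes) or against GSK343 (0.984%). At an unadjusted p below 0.05 there were 3 in each. RBBP4, MTF2 and PHF19 were lower than with XL413, where 15.0% of tested genes passed. EZH1 and JARID2 were lower and PHF19 higher than with GSK343, where 20.4% passed. The interaction, which asks whether the GSK343 effect differed between cells with and without XL413, was called for 0 members, of 0.0% of tested genes. No member had an unadjusted p below 0.05 there by edgeR, where 2.67% of tested genes did, and DESeq2 and limma-voom called 0.

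How many members were called depended on how transcript length and GC content were treated. With both modelled as library-specific trends, EZH2, RBBP7 and MTF2 were called lower with GSK343 alone (3 of 10, against 6.82% of tested genes). In the averaged GSK343 effect the correction called EZH2, RBBP7 and MTF2, and no longer PHF19, where 15.3% of tested genes were called and 11.2% called lower. When GSK343+XL413 replicate 2 was also left out, an alternative chosen after seeing the data, 7 were called lower with GSK343 alone: EZH2, EED, SUZ12, RBBP4, RBBP7, MTF2 and PHF19. In that comparison 15.0% of tested genes were called and 12.2% were called lower. For GSK343+XL413 the same fits called 3 members (EZH2, EED and RBBP7, against 20.1%) and 6 (EZH2, EED, SUZ12, RBBP4, RBBP7 and AEBP2, against 21.3%), all lower. EZH2 reached -0.22 log2 in both. Without GSK343+XL413 replicate 2 and with no correction, the averaged GSK343 effect was called for 4 members, EZH2, RBBP4, MTF2 and PHF19, against 12.9% of tested genes.

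**Figure D4:**
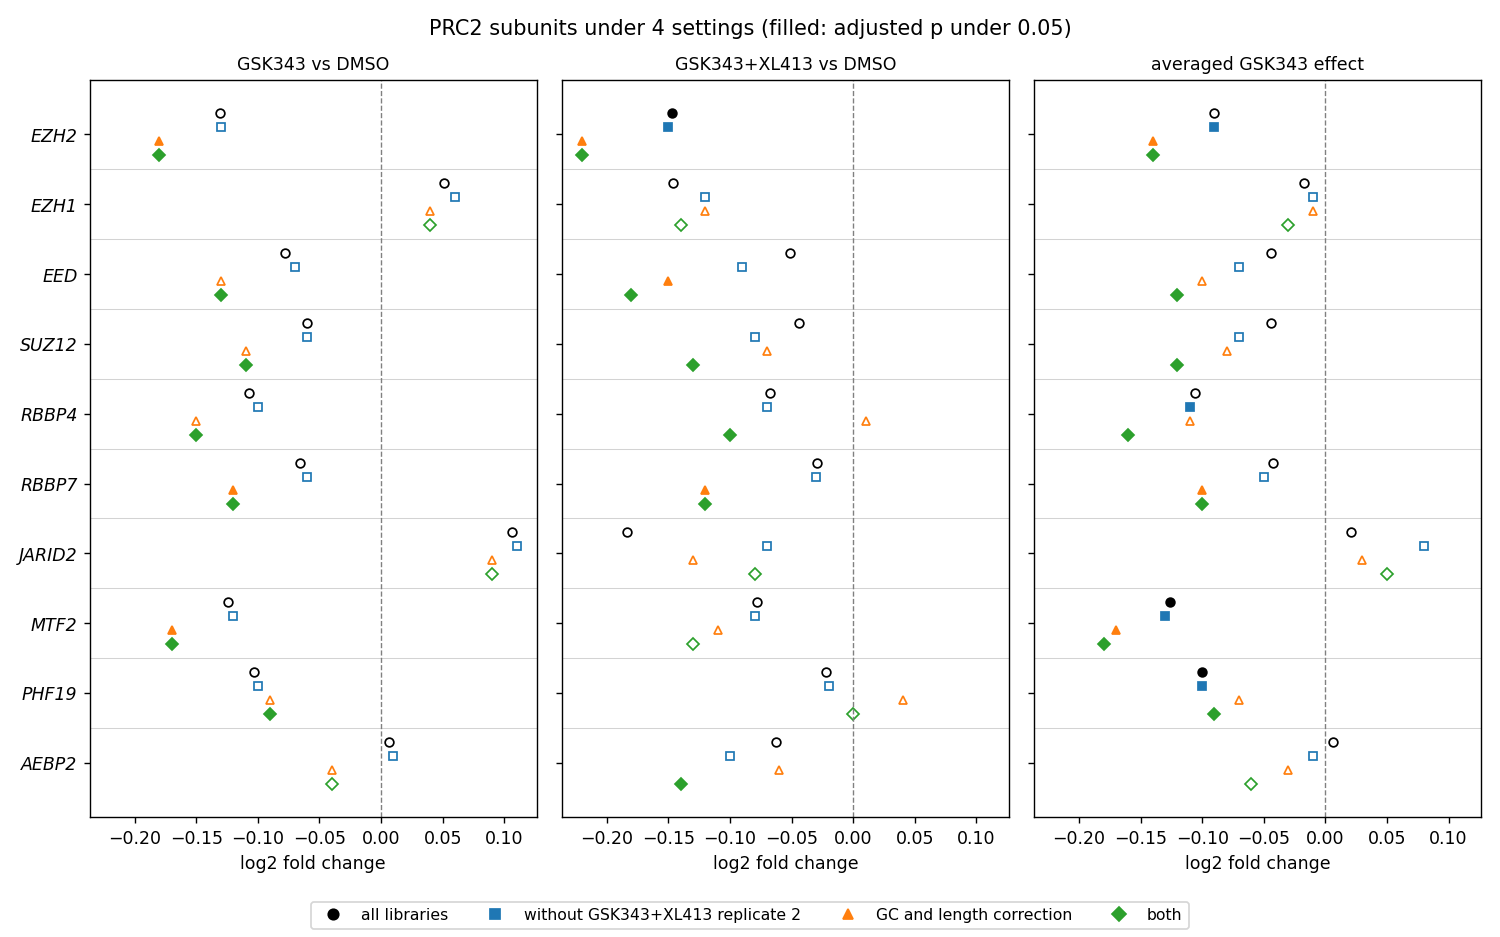
Log2 fold change (x axis) of each PRC2 gene in 3 comparisons under 4 settings: all libraries, without GSK343+XL413 replicate 2, with GC and length correction, and both changes together; filled points have an edgeR adjusted p under 0.05. EZH2 stays between -0.13 and -0.22 in the comparisons with DMSO, whereas RBBP4 and PHF19 with both compounds lie on either side of 0.

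The promoter sequences of the 3 called members are shown because E2F factors drive many replication genes, which were measured in the same libraries. Sequences are from RefSeq on GRCh38.p14, 5′ to 3′ on the strand of the gene, from 250 bases before the annotated start to 50 after it. All 10 members had a window in that table. The words searched on both strands were TTTCCCGC, TTTCGCGC, TTTGCCGC and TTTGGCGC, forms of the E2F consensus, and capitals mark a match. The windows are chr7:148884242-148884541 (minus strand) for EZH2, chr1:93079033-93079332 (plus strand) for MTF2 and chr9:120877139-120877438 (minus strand) for PHF19.
EZH2: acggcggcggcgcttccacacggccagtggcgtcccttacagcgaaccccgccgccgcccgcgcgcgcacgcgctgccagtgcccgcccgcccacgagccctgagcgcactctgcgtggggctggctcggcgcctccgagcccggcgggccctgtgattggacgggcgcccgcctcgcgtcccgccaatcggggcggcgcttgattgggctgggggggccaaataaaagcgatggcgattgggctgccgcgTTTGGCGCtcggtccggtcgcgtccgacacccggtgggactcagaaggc
MTF2: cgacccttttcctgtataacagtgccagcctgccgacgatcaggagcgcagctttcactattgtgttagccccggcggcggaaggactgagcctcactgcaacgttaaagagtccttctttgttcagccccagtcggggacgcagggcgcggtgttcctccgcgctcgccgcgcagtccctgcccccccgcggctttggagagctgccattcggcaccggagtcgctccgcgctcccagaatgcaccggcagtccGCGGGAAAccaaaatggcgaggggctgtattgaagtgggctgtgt
PHF19: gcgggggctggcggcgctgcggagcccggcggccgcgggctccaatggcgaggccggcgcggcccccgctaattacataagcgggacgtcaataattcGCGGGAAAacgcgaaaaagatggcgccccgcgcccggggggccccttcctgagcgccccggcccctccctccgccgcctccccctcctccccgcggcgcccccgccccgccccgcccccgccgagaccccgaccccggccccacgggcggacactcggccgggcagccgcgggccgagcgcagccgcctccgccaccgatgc
EZH2 holds TTTGGCGC on its own strand from base 252 of the window, next to the annotated start. MTF2 and PHF19 hold TTTCCCGC on the opposite strand, from bases 256 and 99 of the window. Of the 10 members, 6 had such a word in their upstream-most RefSeq window, the other 3 being AEBP2, SUZ12 and EZH1, none of which was called in the 8 comparisons. For PHF19 and AEBP2 the RefSeq start used, 120877188 and 19440599, lies inside the GENCODE gene. Those genes begin at 120894896 (minus strand) and 19404045 (plus strand), and sequence at these outer starts was not searched. Counted per window, 6 of the 15 windows of the members held such a word, and 3.31% of all 35116 promoter windows did. That share was not matched for base content or expression, and enrichment was not tested. A match describes the letters only and is not a shown binding site.

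The G1/S and E2F target list, 28 genes of DNA replication and cell cycle entry, holds several known regulators of replication. With GSK343 alone 5 of 28 fell and 0 rose, with a median of -0.12 log2, where 0.44% of tested genes were called lower. UHRF1, which recruits maintenance DNA methylation, averaged 214.0 ± 9.84 CPM with GSK343 against 249.5 ± 4.29 CPM with DMSO (SD, n = 3 each). MYBL2, a cell cycle transcription factor, averaged 179.7 ± 5.31 CPM against 207.9 ± 3.35 CPM with DMSO, and the helicase subunit MCM7 578.9 ± 12.9 CPM against 642.3 ± 6.9 CPM with DMSO. With GSK343+XL413, 5 fell and 1 rose, where 7.25% of tested genes were called lower and 6.69% higher. RRM2, a subunit of ribonucleotide reductase, averaged 398.3 ± 12.9 CPM with both compounds against 463.5 ± 1.83 CPM with DMSO. In the averaged GSK343 effect 12 of 28 fell and 0 rose, where 3.37% of tested genes were called lower. In the averaged XL413 effect 8 of 28 rose and 3 fell, where 4.71% of tested genes were called higher and 4.41% lower. With XL413 alone 1 rose, MCM3, at 219.3 ± 2.97 CPM against 180.1 ± 2.45 CPM with DMSO, where 0.278% of tested genes were called higher. Without GSK343+XL413 replicate 2, 13 of 28 fell with GSK343 alone, where 3.59% of tested genes were called lower.

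Of the complexes that share RBBP4 or RBBP7 (NuRD, SIN3, CAF-1 and MuvB), 1 of 23 genes fell with GSK343 and 6 of 23 fell with GSK343+XL413, and 0 rose in either, where 0.44% and 7.25% of tested genes were called lower. CHAF1A, the large subunit of the histone chaperone CAF-1, averaged 135.7 ± 2.95 CPM with GSK343 against 153.8 ± 2.36 CPM with DMSO (log2 -0.18, edgeR adjusted p = 0.0248). With GSK343+XL413 the NuRD subunits GATAD2A (91.1 ± 2.03 CPM against 116.3 ± 2.2 CPM with DMSO) and MTA2 (185.7 ± 7.09 CPM against 216.3 ± 5.95 CPM with DMSO) fell, as did the corepressor SIN3A (64.5 ± 8.68 CPM against 82.9 ± 1.11 CPM with DMSO). Without GSK343+XL413 replicate 2 the counts were 4 of 23 with GSK343 and 7 of 23 with GSK343+XL413, where 3.59% and 8.26% of tested genes were called lower.

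Among 6 tested further PRC2 partners, 0 were called with XL413 or GSK343. With GSK343+XL413 1 fell, where 7.25% of tested genes were called lower. This was C10orf12, at 7.14 ± 1.4 CPM against 9.97 ± 0.891 CPM with DMSO (edgeR adjusted p = 0.0348, and 0.0778 without GSK343+XL413 replicate 2). C10orf12 shares its locus with LCOR, so reads may be divided between them. PHF1, the remaining Polycomb-like gene, averaged 22.4 ± 0.729 CPM with GSK343 and 22.9 ± 0.293 CPM with DMSO.

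PRC1, the other Polycomb complex, ubiquitinates histone H2A. With GSK343 0 of its 24 genes were called, and with XL413 1, the chromodomain gene CBX6, fell, where 0.149% of tested genes were called lower. With GSK343+XL413 7 of 24 fell and 0 rose, where 7.25% of tested genes were called lower, or 5 without GSK343+XL413 replicate 2, where 8.26% were. Among them, CBX6 averaged 77.1 ± 1.43 CPM against 93.6 ± 2.2 CPM with DMSO, PCGF2 37.0 ± 1.54 CPM against 43.9 ± 1.61 CPM with DMSO, and PHC1 45.7 ± 4.6 CPM against 54.6 ± 2.39 CPM with DMSO. The PHC1 difference was -0.17 log2 without that library and -0.26 with it. Of the 7 tested genes of PR-DUB, which removes that H2A mark, 0 were called with GSK343 and 2 fell with GSK343+XL413, FOXK1 at 23.1 ± 1.89 CPM against 32.3 ± 0.934 CPM with DMSO and MBD6 at 32.2 ± 4.14 CPM against 38.7 ± 0.726 CPM with DMSO. Those 2 stand beside the same 7.25% of tested genes called lower. The call of MBD6 was lost without that library (edgeR adjusted p = 0.104).

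Of 4 genes for other enzymes that act on the same histone lysine as PRC2, 0 were called with GSK343, and with GSK343+XL413 2 fell, the demethylase KDM6B (21.6 ± 2.89 CPM against 30.5 ± 1.27 CPM with DMSO) and the acetyltransferase CREBBP (54.4 ± 11.6 CPM against 74.4 ± 0.978 CPM with DMSO). In that comparison 7.25% of tested genes were called lower. Without GSK343+XL413 replicate 2, 3 of 4 fell with both compounds, where 8.26% of tested genes were called lower. The CREBBP difference was then -0.28 log2, against -0.45 with all libraries. Of 20 SWI/SNF subunits, a remodeller that opposes Polycomb, 0 were called with GSK343. With both compounds 7 fell and 1 rose, where 7.25% of tested genes were called lower, and the ATPase SMARCA4 averaged 339.5 ± 26.6 CPM against 429.3 ± 8.65 CPM with DMSO. Without that library 4 of 20 fell with GSK343, where 3.59% of tested genes were called lower, SMARCA4 among them (edgeR adjusted p = 0.00832). Of 16 other histone H3 methyltransferase genes, 0 were called with GSK343 and 9 fell with both compounds, against the same 7.25% of tested genes. Among these, SETD1B, of the H3 lysine 4 class, averaged 15.5 ± 1.17 CPM against 23.6 ± 0.703 CPM with DMSO, and SUV39H1, of the H3 lysine 9 class, 46.9 ± 0.724 CPM against 56.6 ± 1.43 CPM with DMSO. Without that library 5 of 16 fell with GSK343, against the same 3.59%.

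Genes that PRC2 is known to repress in other cells were mostly not called. Of 36 tested HOX genes, 0 were called with XL413 or GSK343, and 1, HOXA6, fell with both compounds (0.747 ± 0.101 CPM against 1.26 ± 0.272 CPM with DMSO). With both compounds 7.25% of tested genes were called lower. The median HOX difference with GSK343 was 0.0048 log2. Of 45 other tested Polycomb-target regulators, 1 rose with GSK343 and 0 fell, where 0.725% of tested genes were called higher. The gene that rose was CDKN1C, a cyclin-dependent kinase inhibitor, at 21.2 ± 2.27 CPM with GSK343 against 15.6 ± 0.453 CPM with DMSO (log2 0.44, edgeR adjusted p = 0.0248). With both compounds TWIST1 rose (14.0 ± 1.63 CPM against 11.4 ± 0.538 CPM with DMSO) and SOX9 fell (7.89 ± 0.195 CPM against 10.1 ± 0.985 CPM with DMSO). There 6.69% of tested genes were called higher and 7.25% lower. The TWIST1 call was lost without GSK343+XL413 replicate 2 (edgeR adjusted p = 0.106).

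Across the 12 libraries the genes whose log2 CPM followed EZH2 most closely, among 12399 compared, were PRKD2 (Pearson r 0.90), RRM2, FAM57A and STRN4 (0.88 each) and SORBS3 (0.87). Without GSK343+XL413 replicate 2 the highest included TARS (0.93), GTSE1 (0.91), WDR82 and THRA (0.90 each), so the order rests partly on that library. Within groups, after the group means were removed, PRKD2 and EZH2 gave an r of 0.50 and RRM2 and EZH2 an r of 0.41. Among the members themselves the median r over 45 pairs was 0.22 (range -0.51 to 0.85), and -0.06 within groups. These values describe libraries that share depth and treatment, and no test was made of them.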

How the data were processed

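The authors deposited RSEM expected counts, estimated reads per gene that need not be whole, in 1 table for 12 libraries. The submitters' processing notes name RSEM 1.2.15, Bowtie2 2.1.0 and the build hg38. RNA was poly-A selected with a dUTP strand protocol, per the labels' protocols. The gene annotation was not given in the sources used here. The deposited expected counts were rounded, and genes were kept by filterByExpr of edgeR (minimum count 10, minimum total 15; 11032 of 26475 rows removed). TMM scaling and edgeR 4.0.16's quasi-likelihood test (R 4.3.3, 1 coefficient per group, 8 residual degrees of freedom, two-sided) gave differences and SEs, and the Benjamini-Hochberg adjustment ran over all 15443 tested genes for each of 8 comparisons. CPM (counts per 1000000) are TMM-scaled. Alternatives used limma 3.58.1, DESeq2 1.42.0, other filters, other scalings and a GC and length correction (natural splines, 5 degrees of freedom per library, GENCODE 29 lengths). Of the row names, 23872 matched GENCODE directly and 699 through an older symbol. The fit was tested on simulated data.

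All 10 subunits are named. From each gene list, up to 3 called genes with the smallest p per comparison are eligible, and where none was called the 2 with the highest mean CPM. For brevity not every eligible gene is printed, and some items are not reported here. C10orf12's link to LCOR is background. The members and lists were chosen with earlier results of these data known. Each member had 692 to 12261 counts per library.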

Additional observations from a re-analysis of the deposited data

How the results depend on the processing

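Of 1810 member results under alternatives, 59 became called, 30 lost their call and 13 uncalled ones changed sign by more than their SE. The other 1708 kept their side of the threshold, and no limit was set on shifts that kept their sign. Of the 1708, 102, all uncalled, also changed sign, by less than their SE. No called difference changed sign. The 30 lost calls belong to EZH2 with GSK343+XL413 and to MTF2 and PHF19 in the averaged GSK343 effect. The number of members called moved as follows. With GSK343+XL413 against DMSO it was 1, and became 0 with upper quartile scaling, 0 with no filter, 0 with only the compared groups in the fit, and 3 with GC and length correction. In the averaged GSK343 effect it was 2, and became 0 with upper quartile scaling and 0 with no filter. It became 3 with RLE size factors (6.64% of all tested genes), DESeq2 (8.29%) and limma-voom (6.51%), where RBBP4 joined. With GC and length correction it was also 3 (15.3%), namely EZH2, RBBP7 and MTF2, with PHF19 lost. In the averaged XL413 effect it was 0, and became 2 with a stricter filter (EZH1 lower, PHF19 higher; 14.3% of all tested genes), 2 with DESeq2 (JARID2 lower, PHF19 higher; 11.8%) and 2 with GC and length correction (14.8%). With that correction it also became 3 with GSK343 against DMSO (6.82%) and 1 with GSK343+XL413 against XL413 (3.57%), from 0 in each. Leaving out 1 library gave 0 to 1 members with GSK343+XL413 against DMSO, 0 to 4 in the averaged GSK343 effect and 0 to 2 in the averaged XL413 effect. With the correction and without GSK343+XL413 replicate 2, chosen after seeing the data, counts were 2 for XL413 (10.1% of all tested genes), 7 for GSK343 (15.0%) and 6 for GSK343+XL413 (21.3%) against DMSO, 4 for GSK343+XL413 against XL413 (4.54%), 7 in the averaged GSK343 effect (21.3%) and 4 in the averaged XL413 effect (18.4%). The cause was not tested. Upper quartile scaling turned the split of all called genes in the averaged GSK343 effect to 678 higher and 290 lower, from 491 and 521. With GSK343 alone the split became 136 and 31, from 112 and 68. With GSK343+XL413 it became 1367 and 778, from 1033 and 1119. GC and length correction gave 633 and 1729 in the averaged effect, 251 and 802 with GSK343 and 1003 and 2102 with GSK343+XL413. By median transcript length 4 of 10 subunits kept their place in the order of levels.

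No pairing of the libraries by replicate number was seen. Same-numbered libraries of different groups had correlations of deviations from -0.37 to 0.35 (median -0.06), and 4 of 12 libraries correlated best with their own number. Whether equal numbers mark a shared day is not known. A replicate block left 1 member, PHF19, called in the averaged GSK343 effect, and with GC and length correction it gave 3 for GSK343 (4.66% of all tested genes) and 2 for GSK343+XL413 (18.4%) against DMSO, 3 in the averaged GSK343 effect (14.0%) and 2 in the averaged XL413 effect (13.5%).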
